A study of Homo sapiens with 12 samples.

Results

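Transcript levels in LNCaP, a line of androgen-responsive human prostate cancer cells, were compared between full serum and serum treated with charcoal and dextran, in cells that received only the vehicle, ethanol. The arrays were chosen by their labels, which gave 4 of the 12 arrays of the study: 2 from cells in full serum and 2 from cells in charcoal-treated serum. The other 8 arrays were from cells given 1 nM cabazitaxel or 1 nM docetaxel for 16 h, both microtubule-stabilising taxanes, with 2 arrays for each drug in each serum. All 6 groups carried the control plasmid MSCV-LMP, brought in by infection, so no group was the uninfected line, and all groups were 1 cell line. The labels do not state whether replicates came from separate cultures, and the p-values then measure the spread between these arrays, which may be technical. How long the cells had been in either serum was not given in the sources used here.

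Serum carries steroid hormones, and passing it over charcoal removes much of them along with other small lipophilic molecules, so charcoal-treated serum is the usual way to lower androgen in culture. Androgen binds the androgen receptor, a nuclear receptor that then binds DNA elements made of a pair of inverted half-sites and turns on genes of the secretory prostate epithelium. LNCaP keeps this receptor and many of its target genes, and its receptor carries a mutation that lets other steroids activate it.

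Values are log2 intensities of Affymetrix Human Gene 2.0 ST arrays, on which 1 transcript cluster (a set of probes) was used per gene. The median of all deposited values was 22.3 on the linear scale, or 4.48 as log2, and a gene was tested where at least 2 of the 12 arrays were above it, which left 11105 genes. All 9 of the 16 listed luminal prostate markers that the annotation named were detected, among them FOLH1, which encodes prostate-specific membrane antigen, at a mean log2 intensity of 9.84 in charcoal serum and 9.83 in full serum. No basal marker of the 6 named had a mean above 32 on the linear scale, and nor did any of 4 endothelial markers. The mean log2 intensity over the basal markers lay between 4.49 and 4.55 in charcoal serum and between 4.50 and 4.51 in full serum. Of 6 fibroblast markers 2, FN1 and VIM, had a mean above 32, and the mean of that list was 5.28 and 5.29 in charcoal serum and 5.38 on both arrays of full serum, a shift whose part in the results was not tested. Of 10 neuroendocrine markers 2 had a mean above 32, SYT4 and DDC. In bulk samples such as these, fewer cells of a kind and less RNA per cell cannot be told apart. Replicates correlated with r = 0.9885 in charcoal serum and 0.9863 in full serum across genes, which are not independent replicates.

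Full serum raised a small set of genes led by products of the androgen-responsive prostate epithelium and lowered a set of mixed function led by the chemokine gene CCL2. Limma 3.58.1, fitted to all 12 arrays with Benjamini-Hochberg adjustment over the 11105 genes, called 25 genes higher in full serum (0.225% of those tested) and 19 lower (0.171%) at an adjusted p under 0.05. These 44 genes ranged from a log2 difference, full minus charcoal, of -1.02 for CCL2 to 1.86 for TARP. The remaining genes moved little: the median over all genes was -0.01, and 46.2% of them were higher in full serum. An unadjusted p under 0.05 was reached by 952 genes, against 555 expected if no gene differed. On the 4 arrays, 15.1% of all genes were higher on both full serum arrays than on both charcoal arrays, and 20.4% were lower on both.

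The counts rested on single arrays. Leaving out charcoal replicate 1 gave 8 genes higher and 6 lower, leaving out charcoal replicate 2 gave 6 and 1, leaving out full serum replicate 2 gave 8 and 6, and leaving out full serum replicate 1 gave 26 and 17. Called under each of these 4 omissions were 7 genes, namely TARP, KLK2, HERC3, CENPN, STK39, ZBTB10 and LASP1. All 44 kept their direction under each omission, and none of their log2 differences moved by more than 1.5 times. The intensities sit on a floor that compresses weak genes, and with an assumed constant of 16 subtracted before the log, 15 of the 44 genes were called.

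**Figure D1:**
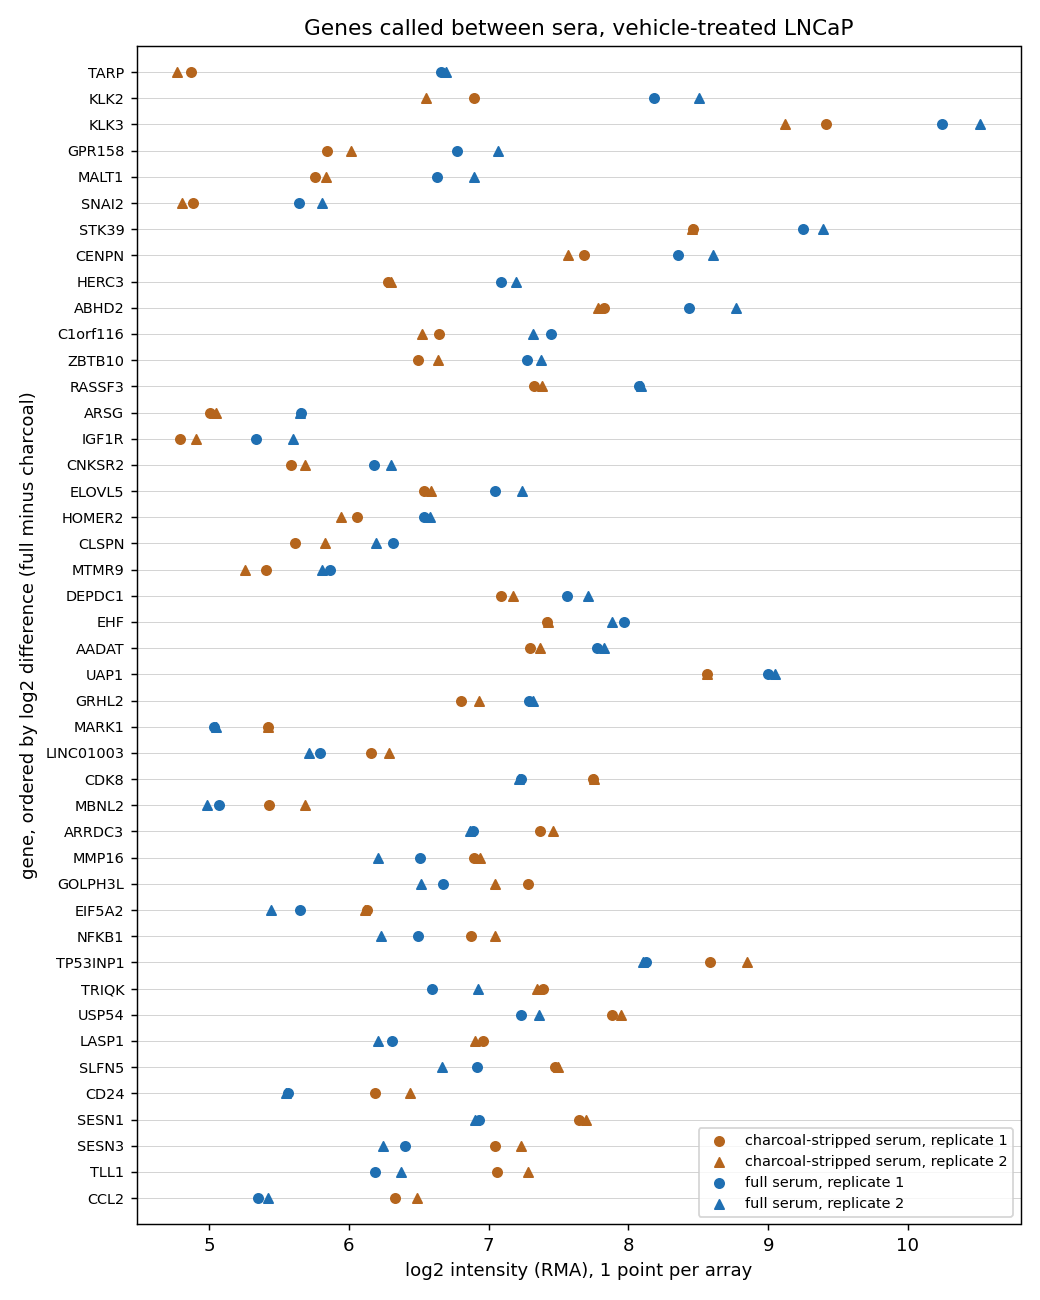
Log2 intensity (horizontal axis) of the 44 called genes on the 4 vehicle arrays, 1 point per array, with genes ordered by their log2 difference, full minus charcoal serum. Colours give the serum and shapes the replicate number; for TARP the charcoal arrays read 4.87 and 4.77 and the full serum arrays 6.66 and 6.70, and for CCL2 at the bottom the order of the sera is turned round.

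The same serum comparison could be read on the 8 taxane-treated arrays, none of which entered the vehicle difference, although all 12 arrays gave 1 shared estimate of the spread. In those arrays limma called 65 genes higher in full serum (0.585% of the genes tested) and 54 lower (0.486%), and 51.4% of all genes were higher. All 25 genes raised with vehicle were also higher with either drug, 23 of them passed the test there, and in all 25 the 4 full serum arrays lay above the 4 charcoal arrays, which held for 3.38% of all genes. Their median log2 difference was 0.73 with vehicle and 0.66 with a taxane. All 19 genes lowered with vehicle had a negative mean difference with a taxane, 14 passed, and in 18 the groups did not overlap, against 3.25% of all genes. Their median was -0.60 with vehicle and -0.52 with a taxane.

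Choosing genes on the taxane-treated arrays and reading them on the vehicle arrays gave the reverse check. All 65 genes called higher with a taxane were higher with vehicle, with a median of 0.49 in the arrays that chose them and 0.46 in the vehicle arrays, and 57 had an unadjusted p under 0.05. Of the 54 called lower, 53 were lower with vehicle, with medians of -0.44 and -0.41, and 46 had an unadjusted p under 0.05. Non-overlap between the 2 vehicle groups held for 64 of the 65 and 51 of the 54, against 15.1% and 20.4% of all genes. With 2 arrays against 2 it is a weaker criterion than on the taxane-treated arrays. The test of the difference itself, the vehicle serum difference minus the taxane serum difference, called 0 genes with limma (0%), with 387 genes at an unadjusted p under 0.05 and a smallest adjusted p of 0.999. That result does not show that the 2 serum differences were equal: for KLK2 the difference between them was 0.22, with a 95% confidence interval from -0.21 to 0.65.

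**Figure D2:**
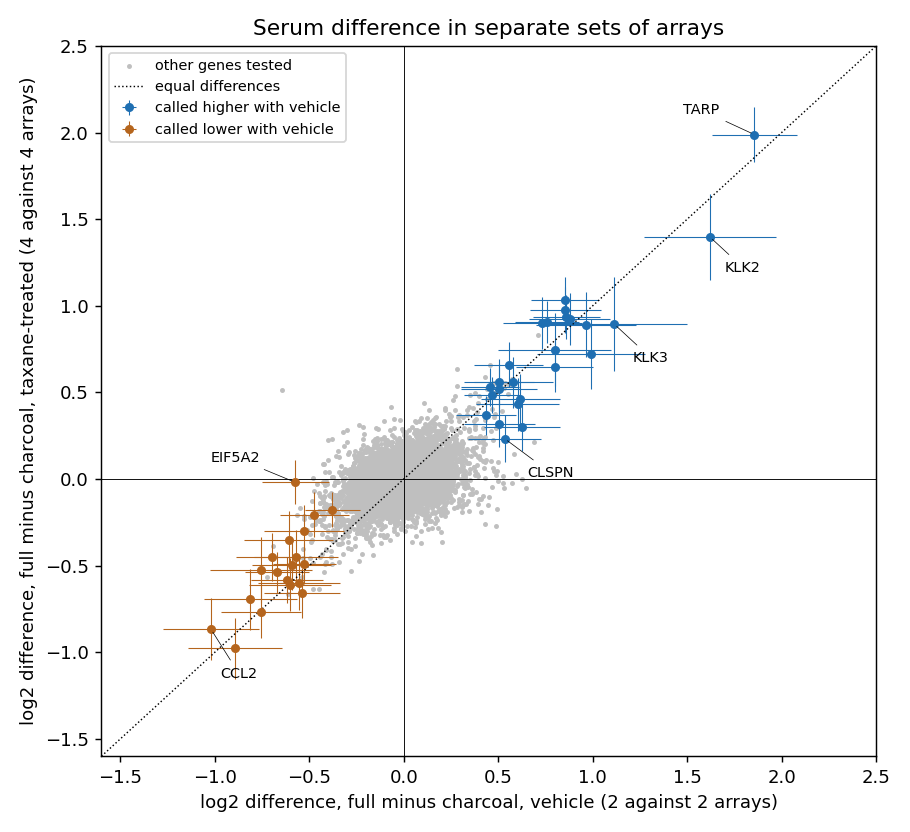
Log2 difference, full minus charcoal serum, on the 4 vehicle arrays (horizontal axis) and on the 8 taxane-treated arrays (vertical axis), 1 point per gene tested, with 95% confidence intervals of limma as bars on the 44 genes called with vehicle and a dotted line at equal differences. EIF5A2 lies farthest from that line among the called genes, at -0.57 with vehicle and -0.02 with a taxane. ARSG (0.63 and 0.30), CLSPN (0.53 and 0.23), SLFN5 (-0.69 and -0.45), LINC01003 (-0.47 and -0.21) and MARK1 (-0.38 and -0.18) also had an unadjusted limma p under 0.05 for the difference. These genes were chosen by their vehicle difference, which enters that test, so its unadjusted p leans small for them.

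The highest differences were those of TARP and of the kallikrein genes KLK2 and KLK3. TARP (transcript cluster 17056817), an androgen-regulated transcript from the T-cell receptor gamma locus, read 4.87 and 4.77 in charcoal serum and 6.66 and 6.70 in full serum, and the sera were separated by many times the gap between replicates. Its log2 difference was 1.86 (SE 0.101, 95% confidence interval 1.63 to 2.08, limma adjusted p = 1.35e-05), and it was 2.81 with the constant of 16 subtracted. KLK2 (16864628), a kallikrein protease that activates prostate-specific antigen, read 6.90 and 6.56 in charcoal serum against 8.19 and 8.51 in full serum, a 3.07-fold rise (log2 1.62, SE 0.159, limma adjusted p = 0.00142). KLK3 (16864616), which encodes prostate-specific antigen, was among the brightest of these genes already in charcoal serum, at 9.41 and 9.12, and reached 10.24 and 10.52. Its rise of 2.16-fold had an SE of 0.176 on the log2 scale (limma adjusted p = 0.0231), and it passed in 1 of the 4 fits that left out a vehicle array, with an adjusted p of at most 0.188.

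The related proteases KLK4 and KLK15 did not pass. KLK4 read 7.98 and 7.94 in charcoal serum and 8.32 and 8.37 in full serum (log2 difference 0.39, limma adjusted p = 0.152). Its arrays did not overlap, as in 15.1% of all genes. With a taxane its difference of 0.39 did pass (limma adjusted p = 0.0159). KLK15 read 4.69 and 4.63 against 5.19 and 4.81 with vehicle (0.33, adjusted p = 0.677) and differed by -0.03 with a taxane. These 5 genes were the tested ones of 12 in the list of secreted proteins and proteases of the androgen response, in which TARP is placed although it is not known as a secreted protein. All 5 were higher in full serum, 3 were called, and their median difference was 1.11, beside -0.01 over all genes. This list and those below were chosen with earlier results of these data known, so such a median is not an independent result.

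KLK3 and KLK2 are neighbours on chromosome 19, and their promoters show the kind of element that the androgen receptor binds. Both windows are the 250 bases upstream of the RefSeq gene start on the plus strand of GRCh38.p14, chr19:50854665-50854914 for KLK3 and chr19:50873189-50873438 for KLK2. Capitals mark the best match to the palindromic element of the receptor, AGAACA, any 3 bases and TGTTCT, searched on both strands.
KLK3: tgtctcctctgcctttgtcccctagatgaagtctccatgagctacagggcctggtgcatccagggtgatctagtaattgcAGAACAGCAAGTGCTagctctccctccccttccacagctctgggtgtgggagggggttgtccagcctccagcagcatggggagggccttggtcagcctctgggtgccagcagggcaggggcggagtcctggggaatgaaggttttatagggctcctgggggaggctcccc
KLK2: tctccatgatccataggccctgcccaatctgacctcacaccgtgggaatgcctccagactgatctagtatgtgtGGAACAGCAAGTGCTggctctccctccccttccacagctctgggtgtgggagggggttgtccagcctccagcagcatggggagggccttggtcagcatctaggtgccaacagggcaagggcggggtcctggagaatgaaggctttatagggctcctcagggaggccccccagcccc
The KLK3 match begins at -170 from the gene start and differs from the element at 2 of its 12 fixed letters. The KLK2 match begins at -176 and differs at 3. Counted from the first base of the match, the sites of KLK3 and KLK2 differ by A1G only.

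Among the genes called higher, 20 had a promoter in the RefSeq table. A match with at most 3 mismatches to the element was found in 3 of the 20 (15%), namely KLK3, KLK2 and STK39, and in 0 of the 13 lower genes with a promoter. It was found in 5.03% of the promoters of all genes tested and in 9.34% of all promoters in that table. The KLK3 and KLK2 windows are closely alike, so they are not separate cases, and the 15% rests on very few promoters. The half-site AGAACA alone, which overlaps the full element, was present in 2 of the 20 (10%), in 1 of the 13 (7.69%) and in 7.67% of the promoters of all genes tested. A match of letters is a description of this window, not a measured binding site.

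Among signalling and transcription genes of the androgen response 4 of the 24 tested rose. STK39 (16904741), a kinase that acts on ion cotransporters, read 8.46 on both charcoal arrays and 9.25 and 9.39 in full serum, a difference of 0.86 (SE 0.0801, limma adjusted p = 0.00142). HERC3, a ubiquitin ligase gene, went from 6.28 and 6.30 to 7.09 and 7.20, and CENPN, which encodes a centromere protein, from 7.68 and 7.57 to 8.36 and 8.60. ZBTB10, a zinc-finger transcription factor gene, went from 6.50 and 6.64 to 7.28 and 7.38. In each of these 4 genes the gap between sera was well above that between replicates on the arrays that chose them. Their differences of 0.76 to 0.86 were 0.91 to 1.04 with a taxane. Of the 24 tested genes of this group 18 were higher and 6 lower, with a median of 0.11, and only these 4 were called with vehicle. FKBP5, a cochaperone gene that androgen and glucocorticoid both induce, read 4.93 and 4.77 against 4.98 and 5.28 and did not pass (0.28, limma adjusted p = 0.463), while its taxane difference of 0.54 did (0.00457). SPDEF, a transcription factor gene of secretory epithelium, did not pass with vehicle either (0.43, limma adjusted p = 0.379) and passed with a taxane (0.59, adjusted p = 0.0173).

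Metabolic genes of the androgen response were mostly higher too. ABHD2, a lipid hydrolase gene, read 7.83 and 7.79 in charcoal serum and 8.44 and 8.77 in full serum (log2 difference 0.80, limma adjusted p = 0.0316). ELOVL5, which elongates polyunsaturated fatty acids, went from 6.54 and 6.59 to 7.05 and 7.24, a difference of 0.58 (adjusted p = 0.0271). UAP1, which makes UDP-N-acetylglucosamine for protein glycosylation, went from 8.57 on both arrays to 9.0 and 9.05, a difference of 0.46 with little spread (adjusted p = 0.0189). The phosphatase gene PLPP1 (0.47), the prostaglandin dehydrogenase gene HPGD (0.38) and the elongase gene ELOVL7 (0.46) did not pass with vehicle, with limma adjusted p of 0.0822, 0.104 and 0.198, and all 3 passed with a taxane. In all 15 of 17 tested members were higher and 3 were called, with a median of 0.14. None of these 3 calls held in all of the fits that left out 1 vehicle array: ABHD2 and ELOVL5 passed in 1 of the 4 and UAP1 in 0, with adjusted p of at most 0.241, 0.216 and 0.169.

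In the transport, secretory and cytoskeletal group the scaffold gene HOMER2 was the only call. It read 6.06 and 5.95 in charcoal serum and 6.54 and 6.58 in full serum (0.56, limma adjusted p = 0.016), and passed in 0 of the 4 fits that left out a vehicle array. Of the 17 genes tested 15 were higher, with a median of 0.15, and the 2 lower ones were the luminal keratin genes KRT18 (-0.20) and KRT8 (-0.18). RHOU, a small GTPase gene, had a difference of 0.37 and PDLIM5, a PDZ and LIM domain gene, of 0.35, neither of which passed. Over all 4 androgen-response groups 63 of 116 listed genes were tested, 53 were higher, 11 were called higher and 0 lower, and the median was 0.15. Over all genes tested 46.2% were higher, 0.225% were called higher and 0.171% lower. On the taxane-treated arrays the same 63 genes gave 57 higher, 18 called and a median of 0.18. Of all genes, 51.4% were higher there and 0.585% were called higher. Outside these lists, C1orf116, known as the specifically androgen-regulated gene and named here after its values were seen, read 6.64 and 6.52 against 7.45 and 7.32 (0.80, limma adjusted p = 0.00368), and passed in 3 of the 4 fits that left out an array. GPR158, a G protein-coupled receptor gene, read 5.85 and 6.02 against 6.77 and 7.07 (0.99, adjusted p = 0.0067) and passed in 1 of them. A second transcript cluster of GPR158 differed by 0.14.

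Genes that androgen represses showed the opposite lean without a call, on few tested genes. Of 6 tested, 5 were lower in full serum and the median was -0.07, beside 46.2% higher and a median of -0.01 over all genes. FOLH1, counted among the 5, was nearly level at 9.84 in charcoal serum and 9.83 in full serum, and HES6 was higher (0.15). CAMK2N1, an inhibitor of the kinase CaMKII, read 6.37 and 6.48 in charcoal serum and 6.13 and 5.85 in full serum, and DDC, which encodes DOPA decarboxylase, read 5.58 and 5.56 against 5.32 and 5.07. CAMK2N1 and DDC were lower on each full serum array, as were 20.4% of all genes. Their mean falls were 0.43 and 0.38 on the log2 scale, and neither passed the adjusted test. Among 14 tested partners and coregulators of the androgen receptor 10 were lower and the median was -0.08. The pioneer factor gene FOXA1 differed by -0.09, and the coactivator gene NCOA2 by -0.35 (limma adjusted p = 0.446). GRHL2, a transcription factor gene of epithelial identity, was 1 of the 4 higher members and the only call, at 6.80 and 6.93 against 7.29 and 7.32 (0.44, adjusted p = 0.0278). EHF, an ETS factor gene of epithelia, also rose, from 7.42 and 7.43 to 7.97 and 7.88 (0.50, adjusted p = 0.0286). Both passed on the taxane-treated arrays, and neither passed in any of the fits that left out 1 vehicle array.

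**Figure D3:**
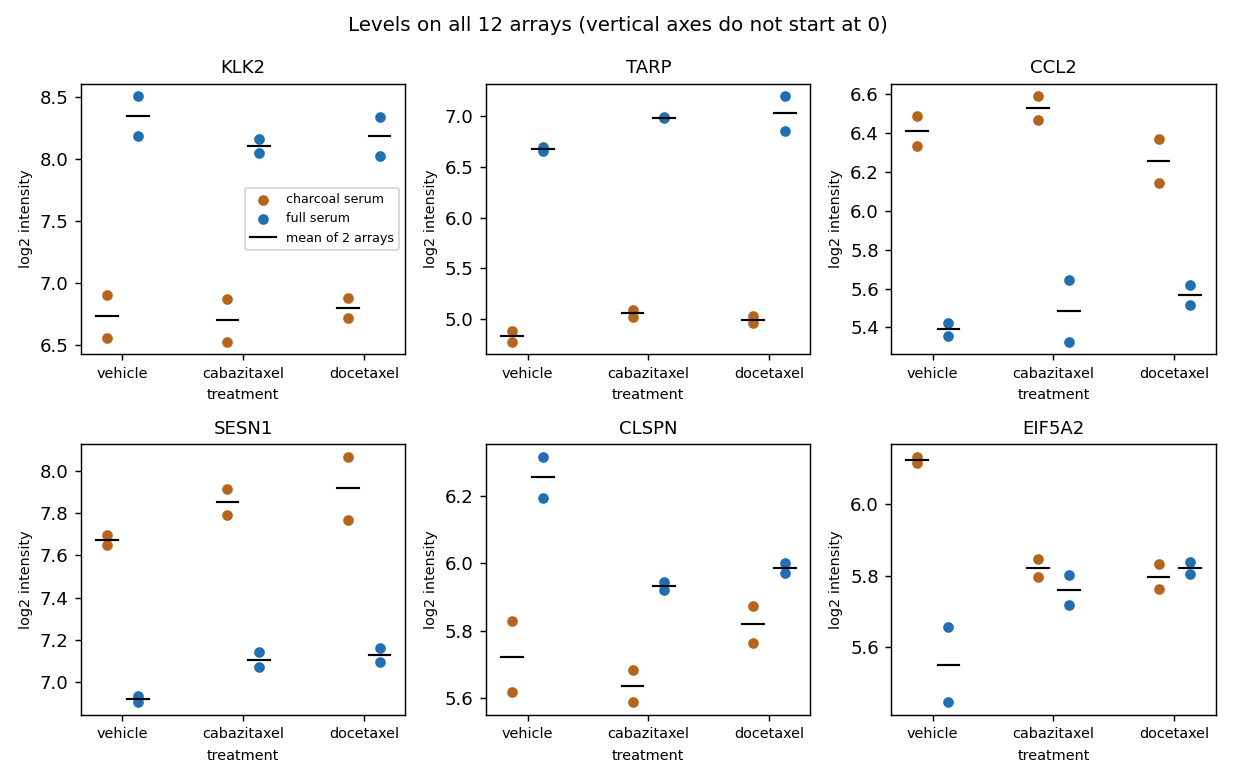
Log2 intensity of 6 genes on all 12 arrays, by treatment (horizontal axis) and serum (colour), 1 point per array with a line at the mean of 2 arrays. The sera separate for KLK2, TARP, CCL2, SESN1 and CLSPN under each treatment, while for EIF5A2 they separate with vehicle only, at 6.13 and 6.12 against 5.66 and 5.45.

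Several other genes that rose act in growth and signalling. IGF1R, the receptor for insulin-like growth factors, was near the floor in charcoal serum, at 4.80 and 4.91, and read 5.33 and 5.60 in full serum (0.62, limma adjusted p = 0.0186). With the constant of 16 subtracted its difference was 1.13. None of the other 14 tested growth factor receptor and adaptor genes was called, EGFR (0.20) and IL6R (0.28) included, and the list's median was -0.01. MALT1, a protease of NF-kappaB signalling, read 5.76 and 5.84 against 6.63 and 6.90 (0.97, adjusted p = 0.00603), and RASSF3, a gene with a Ras-association domain, 7.33 and 7.38 against 8.08 and 8.09 (0.73, adjusted p = 0.00661). The sera were far apart in both genes relative to their replicates on the arrays that chose them, and both differences held with a taxane, at 0.89 and 0.90. SNAI2, which encodes the Slug repressor that loosens epithelial junctions, read 4.89 and 4.81 against 5.64 and 5.81 (0.88, adjusted p = 0.0032), and 1.53 was its difference with the constant subtracted. IGF1R, MALT1 and RASSF3 passed in 1 of the 4 fits that left out a vehicle array and SNAI2 in 3.

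Smaller rises were called for genes of less related function. AADAT, an aminotransferase gene of lysine and tryptophan breakdown, went from 7.30 and 7.37 to 7.77 and 7.83 (0.47, limma adjusted p = 0.0133), and CNKSR2, a scaffold gene of Ras signalling, from 5.59 and 5.69 to 6.18 and 6.30 (0.60, adjusted p = 0.0271). ARSG, a lysosomal sulfatase gene, went from 5.01 and 5.05 to 5.66 and 5.65 (0.63, adjusted p = 0.0137; 1.04 with the constant subtracted). MTMR9, which encodes an inactive myotubularin phosphatase, went from 5.41 and 5.26 to 5.87 and 5.81 (0.51, adjusted p = 0.0286; 0.76 with the constant subtracted). All 4 had arrays that did not overlap between sera, as had 15.1% of all genes in that direction, and they were chosen on these same arrays. AADAT passed in 1 of the 4 fits that left out a vehicle array and the other 3 genes in 0. ARSG was called with vehicle and not with a taxane (0.30, limma adjusted p = 0.0576). The limma test of that difference gave 0.32 with an unadjusted p of 0.0146 and an adjusted p of 0.999. ARSG was chosen by its vehicle difference, which that test reuses, so the unadjusted p leans small.

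Cell-cycle genes leaned higher. CLSPN, which encodes the replication checkpoint adaptor claspin, read 5.62 and 5.83 in charcoal serum and 6.32 and 6.19 in full serum (0.53, limma adjusted p = 0.0271). A second transcript cluster of the gene differed by 0.05, the call was lost under each of the 4 omissions of a vehicle array, and on the taxane-treated arrays the difference was 0.23 (adjusted p = 0.131). DEPDC1, a gene expressed in dividing cells, read 7.09 and 7.17 against 7.56 and 7.71 (0.50, adjusted p = 0.0452), and its second cluster differed by 0.49. Of 28 tested genes of DNA replication and S phase 23 were higher with vehicle, 1 was called and the median was 0.11. On the taxane-treated arrays all 28 were higher, 5 were called and the median was 0.20. Of all genes, 51.4% were higher there and 0.585% were called higher. The replicative helicase gene CDC45 read 6.60 and 6.58 against 7.08 and 6.95 with vehicle and did not pass (0.43, adjusted p = 0.0822), and the licensing gene CDC6 had 0.28 with vehicle (adjusted p = 0.575) and 0.64 with a taxane (0.00519). TIPIN, a replication fork protection gene, was the lowest of the list with vehicle, at 6.72 and 6.73 against 6.49 and 6.43 (-0.26). Of 45 mitosis genes 32 were higher, with a median of 0.10, and CENPN, described above, was the only call.

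Genes lowered by full serum were led by a chemokine. CCL2 (16833204), which attracts monocytes, read 6.33 and 6.49 in charcoal serum and 5.35 and 5.42 in full serum, a 2.03-fold lower level (log2 -1.02, SE 0.115, 95% confidence interval -1.27 to -0.77, limma adjusted p = 0.00324). It fell also with a taxane, by 0.87 on the log2 scale, and it missed the threshold in 1 of the 4 fits that left out a vehicle array, without charcoal replicate 2. NFKB1, which encodes the p105 and p50 subunit of NF-kappaB, read 6.87 and 7.04 against 6.50 and 6.23 (-0.59, adjusted p = 0.0237) and passed in 1 of those 4 fits. The chemokine gene CCL20 read 5.51 and 5.50 against 4.91 and 5.10 and did not pass (-0.50, adjusted p = 0.106). Of 13 NF-kappaB and inflammatory genes tested, 8 were lower and 5 higher, 2 were called lower and 1, MALT1, higher, and the median was -0.04. The transcription factor genes RELA (0.09), RELB (-0.04) and NFKB2 (0.05) were not called. Of 5 immune cell markers that were named, 1, CD68, had a mean above 32, and the list's mean log2 intensity lay between 4.65 and 4.70 on the 4 arrays.

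Another 4 genes that fell are known from responses to stress or to the withdrawal of growth factors. SESN1 and SESN3 encode sestrins, which restrain the growth kinase mTORC1. SESN1 read 7.65 and 7.70 in charcoal serum and 6.93 and 6.90 in full serum, with both pairs close together (-0.75, SE 0.0959, limma adjusted p = 0.00603). SESN3 read 7.04 and 7.23 against 6.41 and 6.24 (-0.81, adjusted p = 0.0102), and TP53INP1, a p53-induced gene of cell death and autophagy, 8.59 and 8.85 against 8.13 and 8.11 (-0.60, adjusted p = 0.0271). ARRDC3, an arrestin-like adaptor gene that promotes receptor degradation, read 7.37 and 7.46 against 6.89 and 6.87 (-0.54, adjusted p = 0.0316). All 4 passed on the taxane-treated arrays, with differences from -0.61 to -0.77. In the fits that left out a vehicle array SESN1 and TP53INP1 passed in 1, SESN3 in 2 and ARRDC3 in 0.

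The rest of that list did not follow as a whole with vehicle. Of 18 tested FOXO and growth-factor-withdrawal genes 9 were lower and 9 higher with vehicle, and the median was -0.02. Called lower were 3, beside 0.171% of all genes. On the taxane-treated arrays 13 of the 18 were lower, with a median of -0.08, and 4 were called lower, beside 0.486% of all genes. TXNIP, an inhibitor of glucose uptake and thioredoxin, read 7.95 and 7.90 against 7.57 and 7.61 and did not pass (-0.34, limma adjusted p = 0.175), and CCNG2, a cyclin gene of non-dividing cells, read 5.84 and 5.55 against 5.43 and 5.32 (-0.32, adjusted p = 0.276) and passed with a taxane (-0.43, adjusted p = 0.00868). The insulin receptor gene INSR (0.08) and the adaptor gene IRS2 (0.01) were not called. Among 20 tested p53 targets 14 were lower (median -0.06), and the 2 calls, SESN1 and TP53INP1, were both named above. The promoter element GTAAACA, to which FOXO factors bind, searched on both strands, was present in 0 of the 13 promoters of lowered genes and 2.06% of the promoters of all genes tested. At so low a share 13 promoters would most likely hold 0 matches in any case, so the count decides nothing. TP53INP1 had no promoter among the 13, and a part for FOXO factors was not tested.

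Among the other genes that fell were 4 of the matrix, cell surface and cytoskeleton. TLL1, a metalloprotease gene that processes collagen, read 7.06 and 7.28 in charcoal serum and 6.19 and 6.37 in full serum (-0.89, limma adjusted p = 0.00603). MMP16, a membrane-bound matrix metalloprotease gene, read 6.90 and 6.94 against 6.51 and 6.21 (-0.56, adjusted p = 0.039). LASP1, an actin-binding adaptor gene, read 6.96 and 6.90 against 6.31 and 6.21 (-0.67, adjusted p = 0.00324) and was the only lowered gene that passed under each of the 4 omissions of a vehicle array. CD24, a surface glycoprotein gene, read 6.19 and 6.44 against 5.56 and 5.55 (-0.75, adjusted p = 0.0271). TLL1 passed in 3 of those fits, MMP16 in 1 and CD24 in 0, and all 4 genes were called lower with a taxane. In the list of cytoskeletal, adhesion and epithelial-mesenchymal genes 8 of 14 were higher and 6 lower (median 0.04), with CD24 and LASP1 called lower and SNAI2 higher.

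The other called falls were spread over regulatory functions. SLFN5, an interferon-induced Schlafen gene, read 7.48 and 7.50 in charcoal serum and 6.92 and 6.67 in full serum (-0.69, limma adjusted p = 0.00603), and of 17 tested interferon-induced genes it was the only call, with 12 lower and a median of -0.08. CDK8, a kinase gene of the Mediator complex, read 7.75 and 7.76 against 7.23 and 7.22, among the tightest pairs of the called genes (-0.53, adjusted p = 0.0132). USP54, a gene of the ubiquitin-specific protease family, read 7.88 and 7.95 against 7.23 and 7.36 (-0.62, adjusted p = 0.0104). GOLPH3L, a Golgi gene, had -0.57 (adjusted p = 0.0383), and these 4 genes were also called lower with a taxane. TRIQK (-0.61), the splicing regulator gene MBNL2 (-0.53), the microtubule-affinity kinase gene MARK1 (-0.38) and LINC01003 (-0.47), a non-coding symbol named here after its values were seen, were called with vehicle and did not pass with a taxane, where they stood at -0.35, -0.30, -0.18 and -0.21. A second transcript cluster of TRIQK differed by -0.20 with vehicle. With the constant of 16 subtracted MBNL2 stood at -0.90 and MARK1 at -0.66. SLFN5, USP54 and TRIQK passed in 1 of the fits that left out a vehicle array, and CDK8, GOLPH3L, MBNL2, MARK1 and LINC01003 in 0.

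EIF5A2, an isoform gene of the translation factor that carries hypusine, differed most between the vehicle and the taxane arrays among the called genes. It read 6.13 and 6.12 in charcoal serum and 5.66 and 5.45 in full serum with vehicle (-0.57, limma adjusted p = 0.0116). With cabazitaxel it read 5.80 and 5.85 in charcoal serum and 5.72 and 5.80 in full serum, and with docetaxel 5.76 and 5.83 against 5.80 and 5.84, so the sera overlapped under both drugs. The test of the difference gave -0.56 with an unadjusted p of 0.0002 and a limma adjusted p of 0.999, so it did not pass over all genes. The vehicle difference both chose this gene and enters that test, so the unadjusted p leans small. The call with vehicle was lost in 3 of the 4 fits that left out a vehicle array.

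The lists for other hormones and for cholesterol gave no call, and fatty acid synthesis gave 1. Of 10 tested oestrogen-induced genes 7 were higher, with a median of 0.03. GREB1, which responds to oestrogen and to androgen, read 4.55 and 4.69 in charcoal serum and 4.99 and 5.28 in full serum, close to the floor (0.52, limma adjusted p = 0.0786), and passed with a taxane (0.40, adjusted p = 0.0289). Of 8 glucocorticoid-induced genes 6 were higher, with a median of 0.04, and ERRFI1, a feedback inhibitor of EGFR, had 0.34 (adjusted p = 0.252) and passed with a taxane (0.40, adjusted p = 0.0153). Retinoic acid, thyroid hormone and vitamin D lists had 4, 4 and 2 tested genes with 0 calls each. Of 18 cholesterol synthesis and uptake genes 13 were higher, with a median of 0.03, led by the sterol isomerase gene EBP (0.27) and the sterol sensor gene SCAP (0.25). Fatty acid synthesis had 11 of 16 higher and a median of 0.10, with ELOVL5 called and ACACA, the first committed enzyme, at 0.36 without passing. Fatty acid oxidation had 7 of 12 lower and a median of -0.03, and its lowest member, the thiolase gene ACAA2, read 5.81 and 5.56 against 5.13 and 5.20 (-0.52, adjusted p = 0.075).

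Secretory folding genes had the highest median of the lists outside that of TARP and the kallikreins. Of 14 tested unfolded protein response and secretory folding genes 12 were higher, with a median of 0.21, and 0 were called with vehicle. MANF, an endoplasmic reticulum stress protein gene, read 5.63 and 5.59 in charcoal serum and 5.87 and 5.95 in full serum (0.30, limma adjusted p = 0.124), and XBP1, a transcription factor gene of that response, 6.61 and 6.45 against 6.69 and 6.79 (0.21). On the taxane-treated arrays all 14 were higher, with a median of 0.14, and MANF passed (0.27, adjusted p = 0.0216). Calreticulin, CALR, an abundant chaperone, was at 10.46 and 10.39 against 10.60 and 10.71 and did not pass (0.23, limma adjusted p = 0.516). Its full serum arrays both lay higher, as in 15.1% of all genes.

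**Figure D4:**
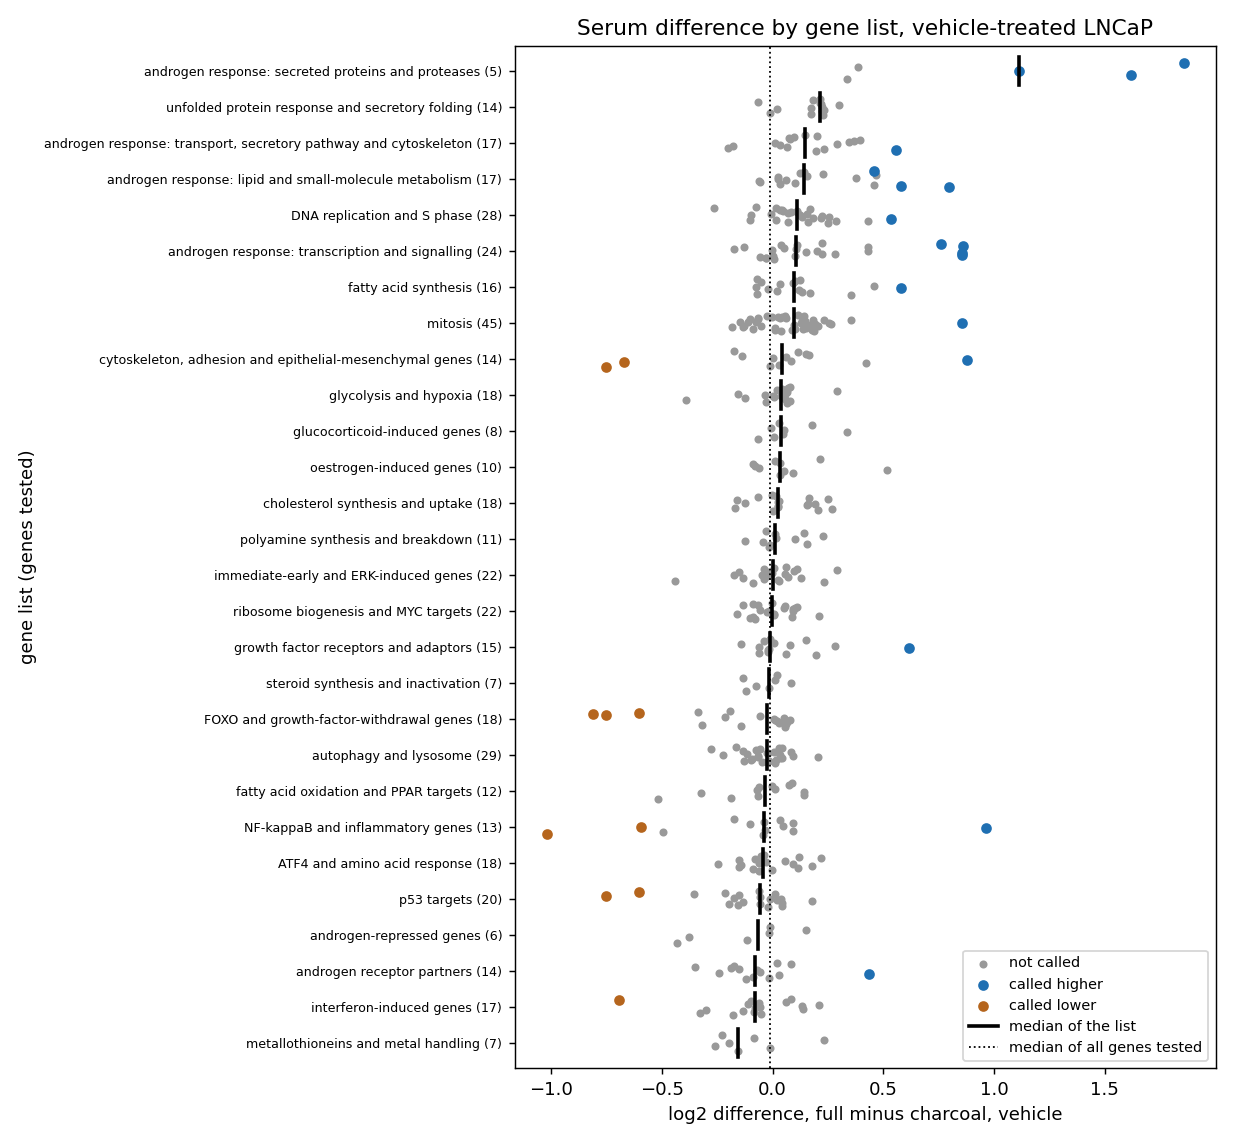
Log2 difference, full minus charcoal serum, with vehicle (horizontal axis) for each tested gene of 28 lists (vertical axis, number of tested genes in brackets), with called genes coloured, list medians as black bars and the median of all genes as a dotted line. The list of TARP and the kallikreins, with 5 tested genes, has a median of 1.11 and the secretory folding genes 0.21. Most lists have medians near that of all genes, at -0.01. The lists were chosen with earlier results of these data known.

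The remaining stress, growth and small RNA lists held no gene called with vehicle. Ribosome biogenesis and MYC targets had 10 of 22 higher and a median of -0.00442 with vehicle. With a taxane 19 of 22 were higher, beside 51.4% of all genes, with a median of 0.10, and 0 were called in either. Immediate-early genes had 11 of 22 higher, and EGR1, a growth-factor-induced transcription factor gene, read 5.54 and 5.64 against 5.14 and 5.16 without passing (-0.44). Glycolysis and hypoxia genes had 12 of 18 higher and a median of 0.04. The mitophagy receptor gene BNIP3L was lower on both full serum arrays (-0.39), as were 20.4% of all genes. NDRG1, which androgen also induces, was higher on both (0.29), as were 15.1% of all genes, and neither gene passed. Autophagy and lysosome genes had 17 of 29 lower and a median of -0.02, ATF4 and amino acid response genes 12 of 18 lower and -0.05, and polyamine genes 6 of 11 higher and 0.01. With a taxane these lists had 15 of 29 lower, 10 of 18 higher and 10 of 11 higher, in that order. Metallothionein and metal-handling genes had 6 of 7 lower with vehicle and a median of -0.16, the lowest of these lists, with 0 called. With a taxane 4 of the 7 were lower and 3 higher, with a median of -0.04, so the lean was not seen there. Small nucleolar and Cajal body RNAs had 19 of 20 higher with vehicle and a median of 0.19, and 9 of 20 higher with a taxane, with 0 called in either set.

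Just outside the threshold with vehicle lay RAD54B, a recombination gene (0.59, limma adjusted p = 0.0519), TEX2 (0.48), USP43 (0.38), ENDOD1 (0.71) and TAOK3 (0.44) among genes higher in full serum. On the lower side lay TRAPPC6B (-0.43, adjusted p = 0.0539), RNF6 (-0.43), KLHL1 (-0.45) and CBLN2 (-0.53). ENDOD1 read 7.45 and 7.46 against 8.09 and 8.24 and did not pass (adjusted p = 0.0536). NIPSNAP3A was among the 5 lowest genes with a taxane (-0.66) and read 6.98 and 7.22 against 6.75 and 6.23 with vehicle, where it did not pass (-0.61, adjusted p = 0.204).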

How the data were processed

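Total RNA was amplified, labelled with biotin and measured on 12 Affymetrix arrays, 2 per group. The authors normalised the arrays with RMA (version not stated), per the submitters' processing notes. The deposited values are intensities on a linear scale, from 17.32 to 6307.28, and 57.5% of them lie below 24, so weak genes sit on a floor. There is no read depth on an array, and the precision is limited by how many arrays each group has. The genome build was not given in the sources used here.

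The log2 of each intensity was taken. GEO's platform annotation named 15835 of 44629 transcript clusters with 1 gene symbol; where a gene had several, as 651 did, the brightest on average over all 12 arrays was used. Limma 3.58.1 in R 4.3.3 fitted 1 mean per group to all 12 arrays, with 6 residual and 5.08 prior degrees of freedom, and 5 contrasts were tested, two-sided, with Benjamini-Hochberg adjustment in each. Differences are full minus charcoal serum. On simulated data with 200 changed genes of 11105, the vehicle comparison recovered 63.9% of changes of log2 0.5 and 96.7% of log2 1. The mean number of false calls was 8.3. The real vehicle comparison called 44 genes, fewer than the 200 changed in the simulation, and the adjustment is stricter where fewer genes change. Recovery may therefore be lower in the real data. The 8.3 is not an estimate of false calls among the 44 genes.

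The arrays, gene lists and the rule for named genes were chosen with earlier results of these data known. The rule names each called gene outside small RNA and uncharacterised symbols, the 5 nearest outside the threshold in each direction, up to 3 genes per list with the smallest p, and the 5 highest and lowest genes with a taxane. Not every gene that the rule names is reported here. Further list members are given as examples. Lists are described by counts and medians, with no test of a list. Alternatives changed the arrays fitted, the floor, the filter, the normalization, the variance model, the test, a replicate block and the clusters averaged, and left out each array in turn. Promoters are those of RefSeq on GRCh38.p14, matched by symbol for 8504 of the genes tested.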

Additional observations from a re-analysis of the deposited data

Results flagged for a closer look

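The lysosomal carboxypeptidase gene CTSA had differences of opposite sign in the 2 sets of arrays, and neither passed (limma adjusted p = 0.592 with vehicle and 0.429 with a taxane). With vehicle it read 6.57 and 6.55 in charcoal serum and 6.71 and 6.81 in full serum, a log2 difference of 0.205. With a taxane the mean difference was -0.16, and every full serum array lay below every charcoal array, as in 3.25% of all genes. The nearest of those arrays were almost level, at 6.571 in full serum and 6.573 in charcoal serum. The test of the difference gave an unadjusted p of 0.0089 and an adjusted p of 0.999 with limma, so it did not pass over all genes. CTSA was flagged for these opposite signs, so the unadjusted p leans small.

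Transcript clusters that the annotation did not name with 1 gene symbol were left out of the comparisons above. Clusters with no symbol and clusters with several were not told apart. In a limma fit over the 25724 clusters that passed the filter, named or not, 26 of 13812 unnamed clusters were called between the sera with vehicle (0.188%), beside 27 of 11912 named ones (0.227%). Of the 26, 19 were higher and 7 lower in full serum, and all 26 were also called in that direction on the taxane-treated arrays. The cluster 17056813 read 4.43 and 4.55 in charcoal serum and 6.39 and 6.66 in full serum (log2 difference 2.03), and 16746287 was lower in full serum by 0.97 on the log2 scale. Cluster 17056823 had nearly the same values as 17056813, at 4.43 and 4.55 against 6.39 and 6.66, so the 26 are not all separate signals. The annotation at hand does not give these clusters 1 gene symbol each.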

How the results depend on the processing

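Each result was recomputed under the alternatives in turn. With vehicle, the 25 genes higher and 19 lower in full serum became 1 and 0 when the 4 vehicle arrays were fitted alone, and 12 and 4 with the assumed constant of 16 subtracted. The methods' t-test on the 4 arrays called 0 in either direction after Benjamini-Hochberg adjustment, with 621 genes at an unadjusted p under 0.05. With no filter 12 genes were lower. Leaving out 1 vehicle array gave 6 to 26 higher and 1 to 17 lower. With a taxane, the 65 higher and 54 lower became 38 and 24 with the constant subtracted, and 37 to 63 and 25 to 57 with 1 array left out. The replicate block gave 35 higher and 35 lower with vehicle and 102 and 88 with a taxane, and all 19 lower genes with vehicle were kept. Replicate numbers did not pair the samples by any label, with only 2 numbers per group, and the correlation of replicate differences between groups ranged from -0.0486 to 0.326. The test between vehicle and taxane differences called 0 genes under each alternative run. Stricter filtering, quantile normalization, the trended variance and averaged clusters kept the counts within 1.5 times. No alternative moved the median of all genes by over 0.1, and all 44 called genes kept their sign. Genes that were not called and changed sign when 1 vehicle array was left out were CAMP (-0.0257 to 0.107), DHRS3 (-0.124 to 0.244), HSD17B8 (-0.281 to 0.0113), MYBBP1A (-0.0309 to 0.447) and MYLIP (-0.0694 to 0.0679, and 0.00589 with quantile normalization). The causes of these shifts were not tested.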
